A study of Mus musculus with 10 samples.

Results

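Heat shock proteins and cytosolic chaperones were represented by 40 of the 55359 genes in the deposited table, found by matching its Ensembl identifiers, without their version, to a list of mouse symbols. Each of the 40 symbols matched 1 identifier. The set holds 2 heat shock factors, 8 members of the HSP70 family, 3 of the HSP110 family, 3 of the HSP90 family, 5 HSP90 co-chaperones, 5 small heat shock proteins, 2 subunits of the mitochondrial chaperonin, 5 J-domain proteins, 2 BAG proteins and 5 subunits of the cytosolic chaperonin TRiC. Most of these proteins work in the cytosol, but the products of Hspa9, Trap1, Hspd1 and Hspe1 are mitochondrial and that of Hspa13 lies in the secretory pathway.

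RNA was sequenced from 10 orthotopic tumors grown from KPC K8484 cells, a luciferase-expressing mouse pancreatic ductal adenocarcinoma line with mutant Trp53 and Pdx1-Cre, injected into the pancreas of C57BL/6J mice of 10 weeks of age. Tumor take was checked by bioluminescence and the mice were then randomized. Per the methods, the orthotopic experiments used males and females in equal number, but the labels give no sex for any mouse. The 5 CTRL mice drank regular water, and the 5 D30 mice drank water with 30% dextrose for 14 days, a diet meant to raise blood glucose. All tumors come from this 1 cell line and the labels name no chemotherapy. The sample titles call the tumors PDX, but their source is given as the mouse cell line. In the table, the CTRL tumors are N1, N2, N4, N5 and N6 and the D30 tumors are T1, T2, T4, T5 and T7, and values are given in that order. The N columns were assigned by their letter and the T columns as the remaining group. The comparison asks how the chaperone genes of pancreatic tumors differ between a high-glucose and a normal diet.

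Chaperones bind proteins that are not in their folded state. HSP70 proteins bind short exposed stretches in cycles of ATP use that J-domain proteins start and that BAG and HSP110 proteins end by exchanging the nucleotide, HSP90 proteins finish the folding of kinases and hormone receptors with the help of co-chaperones, the chaperonins enclose single proteins in a chamber, and small heat shock proteins hold unfolded proteins without using ATP. When unfolded proteins accumulate, HSF1 is released from chaperones, forms trimers and binds heat shock elements, arrays of inverted GAA units in front of its target genes, so that Hspa1a, Hspa1b, Dnajb1, Hspb1 and Hsph1 are transcribed strongly, whereas constitutive members such as Hspa8 and Hsp90ab1 are abundant in unstressed cells. Pancreatic cancer cells are known for high chaperone levels.

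Between 29192261 and 42122304 reads per tumor stood behind the values. T4 was the only tumor with reads of 4 Y-linked genes (841 reads, with 0 in each other tumor). It also lay farthest from the others by base composition, since the 20% of genes with the lowest GC content had a median log2 deviation of 0.49 and the 20% with the highest of -0.68, while in N1 these medians were 0.36 and -0.38. T5 had the fewest genes with a read, 20482, against 23446 to 25912 in the other tumors. Summed markers of the tumor epithelium (12 genes) ran from 250049 to 373191 in CTRL and from 374162 to 573899 in D30, those of endothelial cells (12 genes) from 17726 to 24190 and from 10840 to 18184, and those of fibroblasts (10 genes) from 76009 to 135870 and from 28084 to 102464. In bulk tumors, fewer cells of a type and less RNA per cell cannot be told apart, and the part of these differences in the results that follow was not tested.

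**Figure D1:**
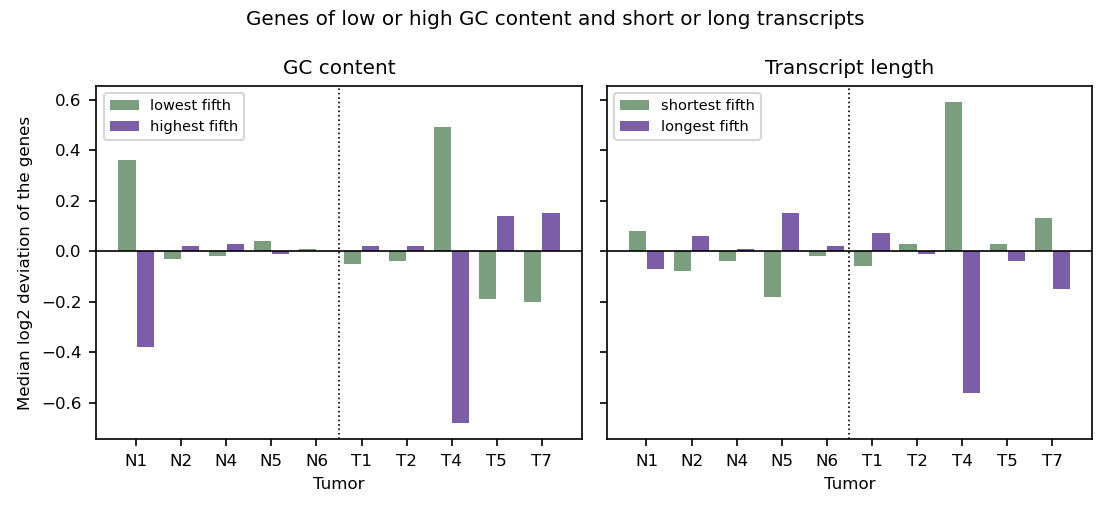
Median log2 deviation of genes from their median over the 10 tumors (vertical axis) in each tumor (horizontal axis), for the 20% of genes with the lowest and the highest GC content (left) and with the shortest and the longest transcripts (right), over 17307 genes. T4 had the farthest values in both panels, from 0.49 to -0.68 for GC content and from 0.59 to -0.56 for length, and N1 followed for GC content.

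All 40 genes were expressed, the lowest mean over the tumors being 25.3 normalized counts, and all 40 entered the test of D30 against CTRL over 24560 genes. A normalized count is a tumor's reads for a gene over its size factor, and fold changes are on the log2(normalized count + 1) scale. None of the 40 genes was called by limma at an adjusted p under 0.05, where 2.76% of all tested genes were called (678 genes, 344 higher and 334 lower in D30; edgeR on the recovered reads called 457 higher and 250 lower, and scaling to library size 240 higher and 626 lower). edgeR also called 0 of the 40. DESeq2 called 0 as well, but it gave no p for Hspa1a, Hspa1b, Hspb1 and Cryab and so could not call these. Dnajb1 and Cct2 had an unadjusted p under 0.05 in limma, that is 2 of 40 genes against 17.3% of all tested genes. DESeq2 gave 3 such genes, against 13.91% of all genes in its fit, and edgeR 5, against 20.15%. In none of the 40 genes did the 5 D30 tumors lie wholly above or below the 5 CTRL tumors, which was the case in 6.19% of all tested genes. Some values carry a counting uncertainty. Exons of Hspa1a, Cryab, Hspb2, Hspd1, Hspe1, Dnaja1, Dnajb6, Hspb6, Tcp1 and Trap1 overlap a gene on the other strand, and those of Hspa14 a protein-coding gene on the same strand. The libraries kept the strand, but whether the counting used it is not given in the sources used here. The GENCODE annotation names processed pseudogenes of Hspa9, Hspd1 and Hspe1, which can share their reads.

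In direction, 27 of the 40 genes were higher in D30 and 13 lower. The median log2 fold change of the 40 genes was 0.16, against -0.06 for all tested genes. The median of the 40 genes was 0.09 without T5 and 0.24 without N4. With library-size scaling, which moved the median of all genes to -0.27, that of the 40 genes was -0.06, with 16 genes higher and 24 lower. The distance to all genes was 0.23 with the deposited scaling and 0.20 with library size, and without T5 it was 0.13. In each tumor, the 40 genes together made up between 1.07% and 1.43% of all normalized counts in CTRL and between 1.10% and 1.29% in D30.

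**Figure D2:**
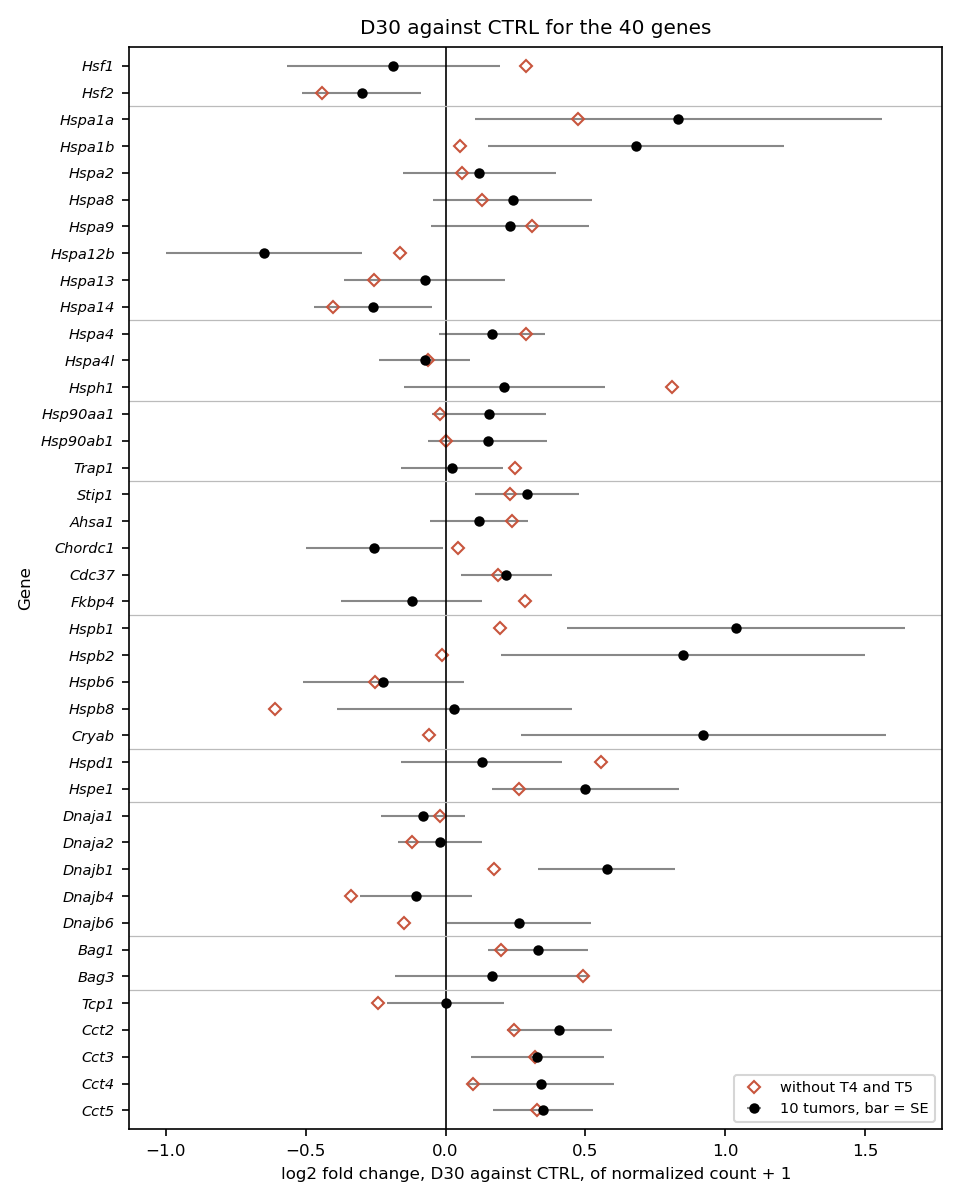
Log2 fold change of D30 against CTRL for each of the 40 genes (points, with the SE as bars, n = 5 tumors per group), grouped by role from the heat shock factors at the top to TRiC at the bottom, with the value without T4 and T5 as open diamonds. With all 10 tumors the values ran from -0.65 for Hspa12b to 1.04 for Hspb1, and without T4 and T5 those of Hsph1 and Hspd1 were higher (0.81 and 0.56).

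Much of the spread lay between tumors of the D30 group. T5 was the highest of the 10 tumors in 13 of the 40 genes (32.5%), against 17.6% of the 17361 genes whose mean was 10 or more. T4 was the highest in 16 of the 40 genes (40.0%), against 27.8%. At the low end the shares were below those of all genes. T4 was the lowest in 9 of the 40 genes (22.5%), against 28.1%, and T5 in 5 (12.5%), against 21.7%. N1 and T4 lay at the same end of their groups in 23 of the 40 genes (57.5%), both highest in 16 and both lowest in 7, against 47.6% of the 17361 genes. In 0 of the 40 genes did they lie at opposite ends, which was also rare over all genes. Among the 17361 genes, N1 was highest and T4 lowest of their groups in 336, and the reverse held in 292.

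**Figure D3:**
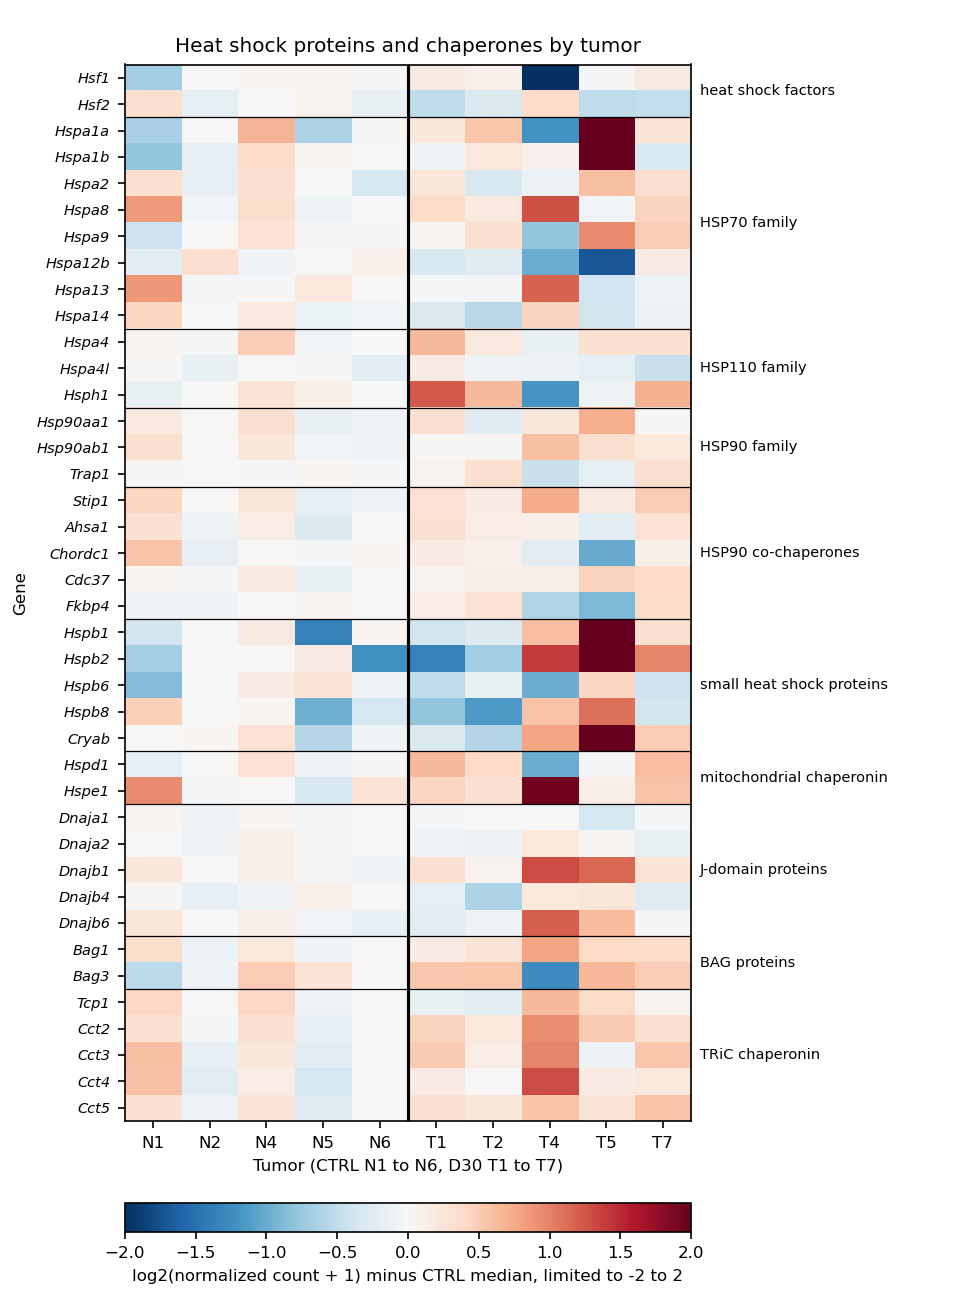
Log2(normalized count + 1) of each of the 40 genes (rows, by role) in each tumor (columns), as the difference from the CTRL median and limited to -2 to 2 for display. Hspa1a, Hspa1b, Hspb1, Hspb2 and Cryab were high in T5, and T4 differed in both directions, with Hsf1, Bag3, Hsph1 and Hspd1 low and Hspe1, Hspa8 and Cct4 high.

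Among the heat shock factors, Hsf1, the main activator of the heat shock response, was measured at 1347, 2181, 2243, 2232 and 2117 in CTRL and at 2477, 2336, 532, 2141 and 2477 in D30. T4 had the lowest value and N1 the next, and the other 8 tumors lay between 2117 and 2477. Hsf1 did not pass the test (log2 fold change -0.19 ± 0.38 SE, n = 5 per group, limma adjusted p = 0.85), and without T4 its log2 fold change was 0.24 (limma adjusted p = 0.43). With the medians of GC content and length removed, Hsf1 in T4 had a log2 difference of -1.68 from the median of the other 9 tumors, against -2.07 in the deposited values. Hsf2, a related factor that joins HSF1 in mixed trimers, went the other way in these tumors, with 1182 in N1 and 1214 in T4 and between 666 and 994 in the other 8.

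The stress-inducible HSP70 genes were at low levels in 9 tumors, and T5 stood apart in them. Hspa1a (ENSMUSG00000091971, chr17:34969190-34972156, minus strand, GRCm38), a single-exon gene that is nearly silent without stress in most tissues, had normalized counts of 15.8, 25.3, 41.1, 15.9 and 25.7 in CTRL and of 29.8, 37.8, 10.4, 344.6 and 30.9 in D30. Its neighbour Hspa1b (ENSMUSG00000090877, chr17:34956436-34959238, minus strand), which encodes an almost identical protein, was at 83.1, 124, 184, 145 and 142 in CTRL and at 134, 165, 152, 1087 and 115 in D30. In both genes T5 was far above the other 9 tumors, 13.6-fold over the CTRL median for Hspa1a and 7.66-fold for Hspa1b, and the other D30 tumors overlapped CTRL. Reads can be divided between these paralogs by the authors' counting, so their ratio is uncertain.

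Neither gene passed the test. The log2 fold change was 0.83 ± 0.73 for Hspa1a (SE, n = 5 per group, limma adjusted p = 0.61) and 0.68 ± 0.53 for Hspa1b (limma adjusted p = 0.55). edgeR on the recovered reads gave 1.89 for Hspa1a and 1.30 for Hspa1b (adjusted p = 0.23 and 0.26), and without T5 limma gave 0.08 and 0.09.

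The 250 bases before the start of both genes are shown because heat shock elements in front of these genes are textbook targets of HSF1 (RefSeq, GRCm38.p6, chr17:34972157-34972406 for Hspa1a and chr17:34959239-34959488 for Hspa1b, both minus strand, printed 5′ to 3′), with the fixed letters of the 2-unit element GAANNTTC or TTCNNGAA in capitals. They were identical at 247 of 250 positions (98.8%), and in both the element began 104 bases before the start.
Hspa1a: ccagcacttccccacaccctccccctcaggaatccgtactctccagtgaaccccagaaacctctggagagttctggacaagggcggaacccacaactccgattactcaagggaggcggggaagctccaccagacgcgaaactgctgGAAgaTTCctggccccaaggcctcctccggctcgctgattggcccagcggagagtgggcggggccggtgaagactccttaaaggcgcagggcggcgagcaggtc
Hspa1b: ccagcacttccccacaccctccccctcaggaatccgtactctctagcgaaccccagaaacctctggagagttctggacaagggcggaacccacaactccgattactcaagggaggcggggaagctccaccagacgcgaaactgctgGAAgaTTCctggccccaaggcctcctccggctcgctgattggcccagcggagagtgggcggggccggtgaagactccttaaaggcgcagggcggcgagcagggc

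The constitutive HSP70 genes were far more abundant. Per kilobase of annotated exon, the mean over the 10 tumors was 17842 normalized counts for Hspa8 and 4679 for Hspa9, against 83.2 for Hspa1b and 19.5 for Hspa1a. Hspa8, the cytosolic HSC70, was at 104743, 56034, 74354, 54527 and 58342 in CTRL and at 75633, 66938, 141221, 56381 and 79194 in D30. Here T4 was highest and N1 next, and T5 lay within the CTRL range, unlike in Hspa1a and Hspa1b. Hspa8 did not pass the test (log2 fold change 0.24 ± 0.28 SE, n = 5 per group, limma adjusted p = 0.72; 0.03 without T4).

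In each of the remaining HSP70 genes T4 or T5 was the highest or the lowest tumor, which was frequent over all genes. Of the 17361 genes, T4 was highest in 27.8% and lowest in 28.1%, and T5 in 17.6% and 21.7%. Hspa9, mitochondrial HSP70, was highest in T5 (34735) and lowest in T4 (10576), with 13629 to 25408 elsewhere. Hspa13, an HSP70-like protein of microsomes, was at 4830 in T4 and 3889 in N1 and between 1627 and 2473 in the other 8 tumors. Hspa14, which acts at the ribosome, ran from 1686 to 2489 in CTRL and from 1261 to 2525 in D30, with T4 and N1 highest. Hspa12b, an HSP70-like gene expressed in endothelial cells, was lowest in T5 (43.5) and T4 (71.7), the tumors in which the summed endothelial markers were also lowest (10840 and 10871), and ran from 123 to 182 in CTRL. Hspa2, a testis-enriched HSP70, ran from 92.4 to 148 in CTRL and from 95.1 to 180 in D30.

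In the HSP110 family, whose members exchange the nucleotide of HSP70, Hsph1 was higher in T1, T2 and T7 than in any CTRL tumor. Hsph1 (ENSMUSG00000029657, chr5:149614287-149636376, minus strand) was at 2466, 2719, 3262, 3003 and 2725 in CTRL and at 6362, 4257, 1198, 2545 and 4480 in D30. T5 lay within the CTRL range and T4 below it. Over the 10 tumors Hsph1 did not pass the test (log2 fold change 0.21 ± 0.36 SE, n = 5 per group, limma adjusted p = 0.81).

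Hspa4, the most abundant HSP110 gene per kilobase, was at 6827, 6379, 9207, 6324 and 6546 in CTRL and at 10282, 7476, 5904, 8066 and 8067 in D30. Its groups overlapped through N4 and T4 (log2 fold change 0.17 ± 0.19 SE, n = 5 per group, limma adjusted p = 0.71). Hspa4l, a relative abundant in testis, ran from 2715 to 3244 in CTRL and from 2347 to 3550 in D30.

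The HSP90 family differed little between the groups. Hsp90ab1, the constitutive cytosolic HSP90 and the most abundant of the 40 genes per kilobase (38575 normalized counts), was at 127500, 102555, 120203, 98704 and 97680 in CTRL and at 104603, 103911, 155000, 127948 and 118765 in D30. Only T4 and T5 exceeded the highest CTRL tumor, T5 by little (log2 fold change 0.15 ± 0.21 SE, n = 5 per group, limma adjusted p = 0.77). Hsp90aa1, the inducible cytosolic form, was highest in T5 (23977) and ran from 12306 to 18157 in the other 9 tumors. Its ratio to Hsp90ab1 was 0.19 in T5 and 0.17 in T1, against 0.13 to 0.15 in CTRL, 0.11 in T4, 0.12 in T2 and 0.13 in T7. Trap1, the mitochondrial HSP90, lay within a narrow range in CTRL, from 3605 to 3803, and in D30 was higher in T1, T2 and T7 (3887, 4678 and 4689) and lower in T4 and T5 (2717 and 3266).

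Of the HSP90 co-chaperones, Fkbp4 divided the D30 tumors in a similar way to Trap1. Fkbp4, an immunophilin that joins HSP90 to steroid receptors and the most abundant co-chaperone per kilobase, was at 18610, 18621, 19497, 20329 and 19683 in CTRL and at 21668, 23800, 12915, 10486 and 25423 in D30. T1, T2 and T7 lay above every CTRL tumor and T4 and T5 below every CTRL tumor (log2 fold change -0.12 ± 0.25 SE, n = 5 per group, limma adjusted p = 0.85; 0.29 without T4 and T5). Chordc1, which binds HSP90 through zinc-binding domains, was lowest in T5 (1456) and highest in N1 (4372), with 2503 to 3299 in the others. Stip1, the adaptor HOP between HSP70 and HSP90, ran from 5940 to 8905 in CTRL and from 7404 to 11151 in D30. Ahsa1, the activator of the HSP90 ATPase, ran from 1997 to 2982 and from 2095 to 2987, and Cdc37, which brings kinases to HSP90, from 7828 to 9849 and from 9050 to 11736.

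The small heat shock proteins had the largest median log2 fold change of the 10 roles, 0.85 over 5 genes, and T5 was the highest of the 10 tumors in each of the 5. Without T5 the median was 0.17, below those of the mitochondrial chaperonin (0.40) and TRiC (0.39), and without T4 and T5 it was -0.06, while edgeR gave 1.35. Hspb1 (HSP27; ENSMUSG00000004951, chr5:135887919-135889563, plus strand) was at 300, 386, 438, 151 and 397 in CTRL and at 300, 321, 592, 4068 and 482 in D30. Cryab (alpha-B crystallin; ENSMUSG00000032060, chr9:50751325-50756636, plus strand) was at 368, 380, 450, 247 and 351 in CTRL and at 301, 246, 638, 5412 and 522 in D30. T5 exceeded the CTRL median 10.5-fold in Hspb1 and 14.7-fold in Cryab, whereas T1 and T2 lay within the CTRL range in Hspb1, and in Cryab T1 lay within it and T2 just below it.

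Neither of them passed the test. The log2 fold change was 1.04 ± 0.60 for Hspb1 (SE, n = 5 per group, limma adjusted p = 0.41) and 0.92 ± 0.65 for Cryab (limma adjusted p = 0.51). Without T5 it was 0.38 and 0.17, and without T4 and T5 the value of Cryab was -0.06. edgeR gave 1.80 and 2.01 (adjusted p = 0.18 and 0.17).

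Hspb2, a small heat shock protein of muscle whose exons overlap those of Cryab on the opposite strand, was at 82.4 in T5, 47.4 in T4 and 35.2 in T7, against 6.85 to 19.5 in CTRL, 6.17 in T1 and 10.3 in T2. Hspb8, the partner of BAG3 in chaperone-assisted autophagy, was also highest in T5 (702) and ran from 148 to 488 in the other tumors. Hspb6, abundant in smooth muscle, was highest in T5 (1163) and lowest in T4 (431). Since these genes are known from muscle, its markers were measured beside them. Summed smooth muscle and pericyte markers (12 genes) were at 7465 in T5, within the CTRL range of 6914 to 10212, and summed skeletal muscle markers (12 genes, of which Myh1, Myh4 and Pvalb were at 0 in every tumor) at 1334, within the CTRL range of 1167 to 1602.

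The 250 bases before Hspb1 are shown for comparison with the HSP70 genes, since T5 was high in all 3 (RefSeq, GRCm38.p6, chr5:135887669-135887918, plus strand). They hold 2 such elements, which began 117 and 97 bases before the start and are in capitals.
Hspb1: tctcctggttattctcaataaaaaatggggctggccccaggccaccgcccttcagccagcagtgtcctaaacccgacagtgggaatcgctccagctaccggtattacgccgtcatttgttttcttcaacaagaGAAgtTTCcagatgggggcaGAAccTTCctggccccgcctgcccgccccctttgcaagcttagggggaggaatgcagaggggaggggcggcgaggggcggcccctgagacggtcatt

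**Figure D4:**
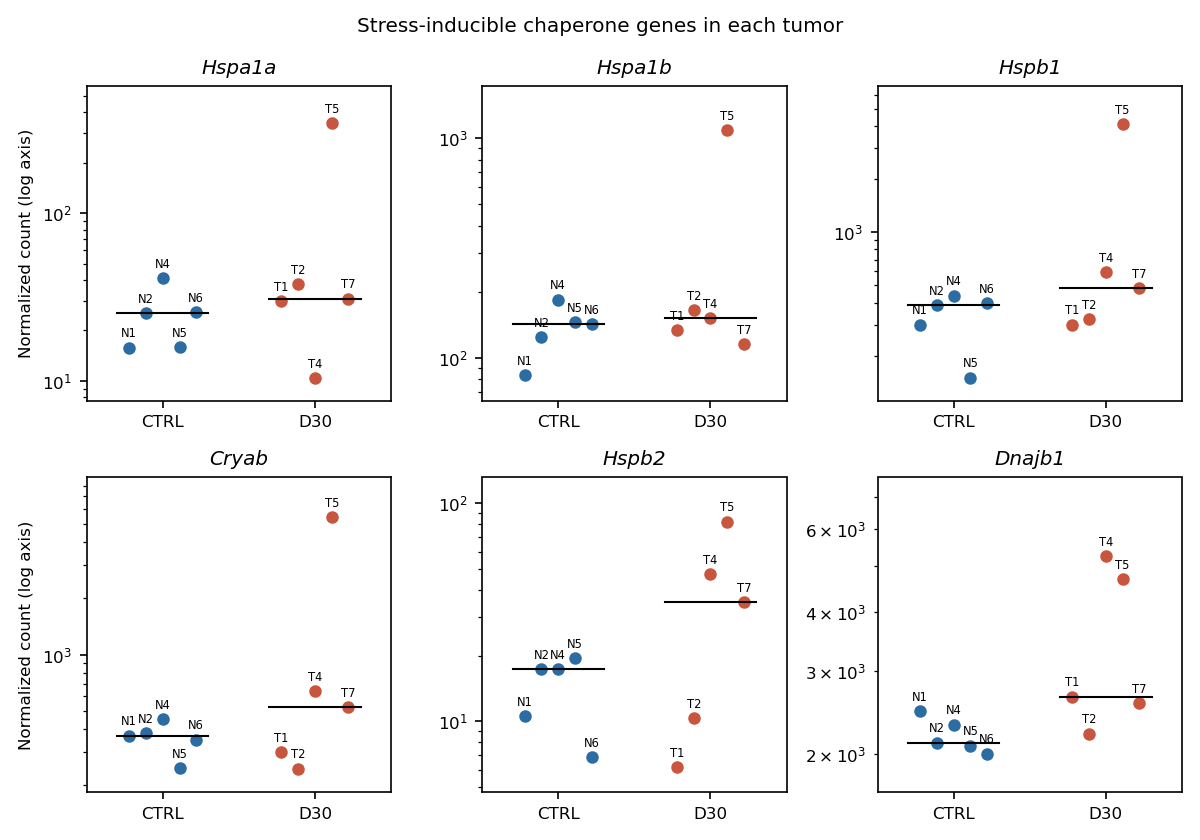
Normalized counts (log axis) of 6 stress-inducible or small heat shock genes in the 5 CTRL and 5 D30 tumors, each point a labelled tumor and the line the group median. T5 was highest in Hspa1a, Hspa1b, Hspb1, Cryab and Hspb2, and T4 in Dnajb1, where T5 followed.

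T5 stood apart from the other 4 D30 tumors on the high side, by Dixon's criterion at the 95% level, in 4 of the 40 genes (Hspa1a, Hspa1b, Hspb1 and Cryab), against 4.23% of the 17361 genes. With the medians of GC content and length removed, T5 exceeded the median of the other 9 tumors by 3.57 on the log2 scale in Hspa1a, 2.81 in Hspa1b, 3.30 in Hspb1 and 3.87 in Cryab, close to the deposited 3.70, 2.93, 3.39 and 3.87. Other measures moved with T5. The summed immediate early genes (20 genes, such as Fos, Jun and Egr1) were at 147175 in T5 against 36891 to 60758 elsewhere, and the summed neutrophil markers (8 genes) at 17007 against 714 to 7208. Summed markers of the tumor epithelium (573899 against 250049 to 475486) and of nerve and Schwann cells (2399 against 810 to 1844) were also highest in T5. Those of endothelial cells, macrophages, T cells, acinar cells and islets were lowest in T5. Their part in the T5 values was not tested.

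The J-domain proteins held the gene with the smallest p of the set. Dnajb1 (HSP40; ENSMUSG00000005483, chr8:83608193-83612653, plus strand), the inducible partner of HSPA1A in dissolving aggregates, was at 2464, 2114, 2307, 2081 and 2001 in CTRL and at 2642, 2210, 5242, 4693 and 2563 in D30. T2 lay within the CTRL range, T1 and T7 just above it, and T4 and T5 at about 2.48- and 2.22-fold the CTRL median. The log2 fold change was 0.58 ± 0.24 (SE, n = 5 per group) with a limma p of 0.0355, which did not pass adjustment over all genes (adjusted p = 0.25, and from 0.13 to 0.48 over the alternatives). Without T4 and T5 it was 0.17.

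Dnajb6, a suppressor of aggregation of glutamine-rich proteins, was likewise highest in T4 (8868) and T5 (6013), with 3360 to 4594 elsewhere. Dnaja2, the most abundant J-domain gene per kilobase, was at 5337, 5062, 5746, 5189 and 5311 in CTRL and at 5012, 4901, 6155, 5514 and 4784 in D30 (log2 fold change -0.02 ± 0.15 SE, n = 5 per group, limma adjusted p = 0.96). These 10 values lay within a narrow range. Dnaja1, the other major cytosolic class A protein, was lowest in T5 (3879) and ran from 4624 to 5159 in the other 9 tumors. Dnajb4, a class B protein, ran from 795 to 957 in CTRL and from 581 to 1044 in D30.

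Of the BAG proteins, Bag1 was at 7654, 5534, 6954, 5675 and 6026 in CTRL and at 6777, 7250, 10429, 7932 and 7770 in D30. T4, T5 and T7 lay above every CTRL tumor (log2 fold change 0.33 ± 0.18 SE, n = 5 per group, limma adjusted p = 0.37). Bag3, a stress-induced HSP70 partner in selective autophagy, was at 854 in T4 and 1398 in N1 and from 2851 to 3245 in the other D30 tumors, against 1916 to 2911 in the other CTRL tumors. N4 alone of the CTRL tumors reached the range of T1, T2, T5 and T7.

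Hspd1 and Hspe1, which encode HSP60 and its lid HSP10 and start head to head from a shared region of chromosome 1, moved in opposite directions in T4. Hspd1 (ENSMUSG00000025980, chr1:55077835-55088243, minus strand) was at 14692, 16811, 20506, 15656 and 17160 in CTRL and at 26425, 22277, 8481, 16420 and 25919 in D30. Hspe1 (ENSMUSG00000073676, chr1:55088132-55091307, plus strand) was at 11187, 5643, 5788, 4637 and 6962 in CTRL and at 7808, 7157, 21957, 6355 and 8562 in D30. Hspd1 was thus lowest in T4, where Hspe1 was highest.

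The ratio of Hspe1 to Hspd1 was 2.59 in T4 and 0.76 in N1 and lay between 0.28 and 0.41 in the other 8 tumors. Hspe1 has the shorter transcript, 964 bases against 2423 for Hspd1. With the medians of GC content and length removed, the log2 difference of T4 from the median of the other 9 tumors was 0.89 for Hspe1 and -1.29 for Hspd1, against 1.66 and -1.02 in the deposited values. Over the 10 tumors neither was called (Hspd1: log2 fold change 0.13 ± 0.29 SE, n = 5 per group, limma adjusted p = 0.86; Hspe1: 0.50 ± 0.33 SE, limma adjusted p = 0.48, and 0.19 without T4).

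The element between them is shown because it was the longest found in front of these genes, with 4 alternating units in 18 bases, read on the strand of Hspe1 for Hspe1 and on that of Hspd1 for Hspd1 (RefSeq, GRCm38.p6, chr1:55088053-55088082, within an annotated exon of Hspd1). The element of Dnajb6, with 3 units, is given beside them (chr5:29735844-29735872, plus strand). It lies before 2 RefSeq starts of Dnajb6 but within annotated exons of Dnajb6 and of Gm5129 on the opposite strand.
Hspe1: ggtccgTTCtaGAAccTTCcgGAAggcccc
Hspd1: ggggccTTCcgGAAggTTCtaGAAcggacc
Dnajb6: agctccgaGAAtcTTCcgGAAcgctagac

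RefSeq windows were found for 31 of the 40 genes (41 windows, since some genes have several starts), and for Hsf1, Hspa8, Hspa9, Hspa13, Hsp90aa1, Hsp90ab1, Hspb2, Cryab and Cct4 there was none. The 3-unit element, GAANNTTCNNGAA on either strand (TTCNNGAANNTTC on the other), occurred within 250 bases before a RefSeq start of 3 of the 31 genes, Hspd1, Hspe1 and Dnajb6, and in 0.466% of 32851 windows of this length. The first is a share of genes and the second of windows, and Hspd1 and Hspe1 hold the same element. The 2-unit element, GAANNTTC or TTCNNGAA, each its own reverse complement and part of every 3-unit element, occurred in 16 of the 41 windows (39%) of 14 genes and in 12.8% of all windows. Some of these windows overlap, as for Hspd1 and Hspe1, or are nearly identical, as for Hspa1a and Hspa1b, so they are not independent. T5 was the highest of the 10 tumors in 6 of the 14 genes (Hspa1a, Hspa1b, Hspb1, Hspb6, Cdc37 and Dnajb4) and the lowest in Dnaja1 and Fkbp4. Among the 17 matched genes without the element it was the highest in 3 (Hspa2, Hspb8 and Bag3) and the lowest in Chordc1 and Hspa12b, and this difference was not tested. A match describes letters only, and no binding was measured.

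The TRiC subunits, which fold actin and tubulin, were mostly higher in D30, in 4 of 5 genes, with a median log2 fold change of 0.34. The median was 0.19 without T4, the highest tumor in all 5, and 0.12 with library-size scaling. Cct2 (ENSMUSG00000034024, chr10:117051001-117063814, minus strand) was at 11083, 8696, 11054, 8021 and 8973 in CTRL and at 12172, 10392, 17032, 12950 and 11254 in D30. T2 alone of the D30 tumors lay below the highest CTRL tumors, N1 and N4. The log2 fold change was 0.41 ± 0.19 (SE, n = 5 per group) with a limma p of 0.0493, which did not pass adjustment (adjusted p = 0.29, and from 0.15 to 0.56 over the alternatives).

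Cct5, the most abundant subunit per kilobase, was at 14515, 10902, 14056, 9836 and 11705 in CTRL and at 14692, 13623, 17445, 14073 and 17384 in D30 (log2 fold change 0.35 ± 0.18 SE, n = 5 per group, limma adjusted p = 0.34). Each D30 tumor exceeded N2, N5 and N6, while N1 and N4 lay within the D30 range. Cct3 ran from 7150 to 12687 in CTRL and from 7666 to 16465 in D30, Cct4 from 4660 to 8906 and from 5977 to 14659, and Tcp1 from 10205 to 14604 and from 9480 to 17035, each with T4 highest. The highest CTRL tumor was N1 in all 5 subunits.

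**Figure D5:**
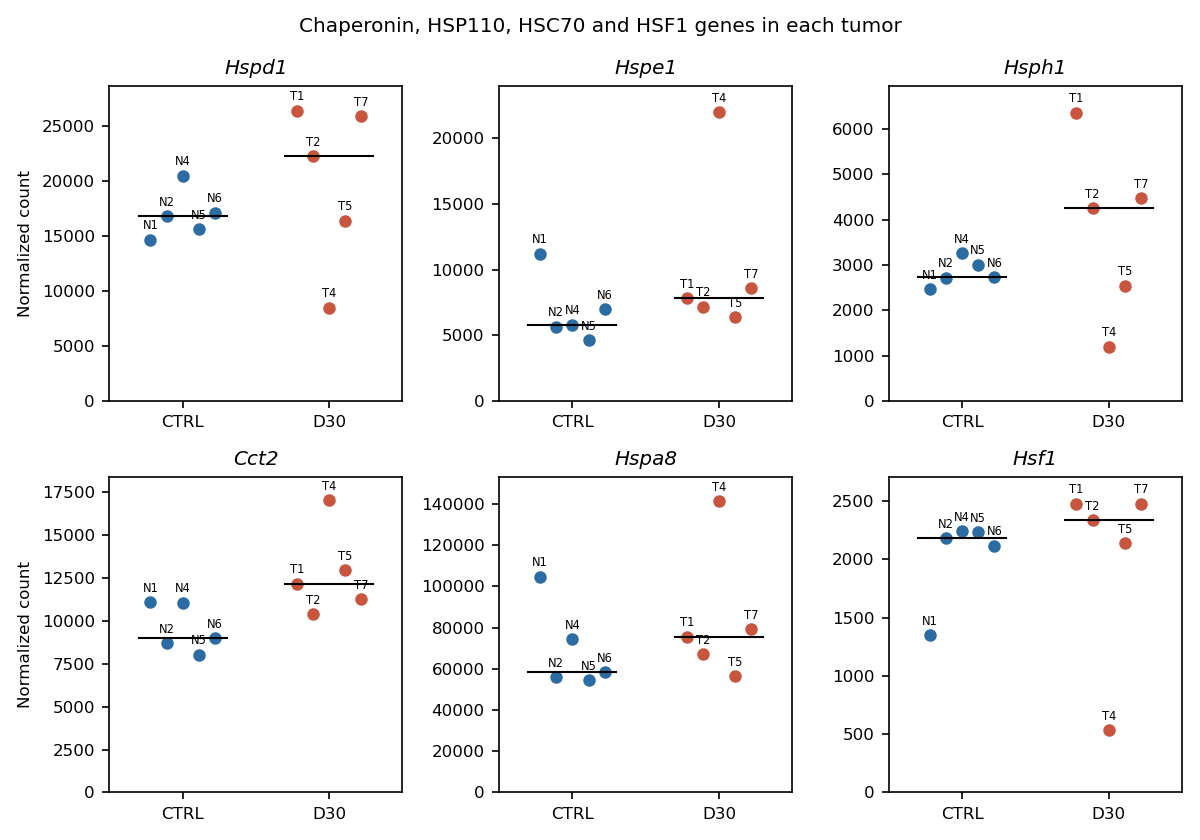
Normalized counts (linear axis from 0) of Hspd1, Hspe1, Hsph1, Cct2, Hspa8 and Hsf1 in each tumor, with the line at the group median. T4 was lowest in Hspd1, Hsph1 and Hsf1 and highest in Hspe1, Cct2 and Hspa8, and T1, T2 and T7 lay above every CTRL tumor in Hspd1, Hsph1 and Hsf1.

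T4 stood apart from the other D30 tumors on the high side in 5 of the 40 genes (Hsf2, Hspa8, Hspa13, Hspe1 and Cct4), against 12.3% of the 17361 genes, and on the low side in 2 (Hsf1 and Bag3), against 3.31%. These shares are close to those of all genes. Without T4 alone, limma again called 0 of the 40 genes, with 6.43% of all tested genes called. In that fit 6 of the 40 had an unadjusted p under 0.05, against 22.48% of all tested genes.

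Without T4 and T5, the tumor with Y-linked reads and the one with the fewest genes read, 2 of the 40 genes were called, Hsph1 (log2 fold change 0.81, limma adjusted p = 0.00742) and Hspd1 (0.56, limma adjusted p = 0.0425), both higher in D30. In that fit of 3 D30 against 5 CTRL tumors 9.97% of all tested genes were called, so the share of the 40 genes was not above it. T1, T2 and T7 lay above every CTRL tumor in 5 of the 40 genes, Hsph1, Hspd1, Trap1, Fkbp4 and Hsf1, against 12.0% of the 17361 genes. The choice of these 2 tumors was made after the data had been seen.

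Other chaperone and heat shock genes were measured beside the 40, as 7 lists of 106 genes, of which 105 were tested. Of these, 63 were higher and 42 lower in D30, with a median log2 fold change of 0.12, but with library-size scaling 33 were higher and 72 lower, with a median of -0.10. The median was 0.07 without T4 and 0.01 without T4 and T5. Of the 105 genes 3 were called, each higher (2.86%, close to the 2.76% of all tested genes). Dedd2, a death effector domain protein listed among the stress-inducible HSF1 targets, was at 672, 637, 838, 771 and 747 in CTRL and at 1258, 1635, 1602, 2813 and 1497 in D30. The D30 tumors lay wholly above CTRL (log2 fold change 1.21, limma adjusted p = 0.0107, and between 3.21e-05 and 0.0456 in all alternatives run). In that list of 10 genes, 7 were higher (5 with library-size scaling), and 3 had an unadjusted p under 0.05.

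Pfdn2, a subunit of prefoldin, which hands actin and tubulin to TRiC, was at 2218, 2070, 1820, 1753 and 1781 in CTRL and at 2848, 3013, 3810, 2683 and 3543 in D30, again without overlap (log2 fold change 0.71, limma adjusted p = 0.0379). Of the 12 further TRiC and prefoldin genes 11 were higher, with a median log2 fold change of 0.24. This rested on T4, since without it 6 were higher and 6 lower, with a median of 0.01, and the counts were also 6 and 6 with library-size scaling (median 0.02). Sugt1, the HSP90 co-chaperone SGT1, was at 2222, 1098, 1235, 1016 and 1165 in CTRL and at 2855, 2077, 4344, 2031 and 2920 in D30, where N1 overlapped with T2 and T5 (log2 fold change 1.08, limma adjusted p = 0.0462). Sugt1 was the only call among 29 further HSP70 and HSP90 partners, of which 16 were higher (6 with library-size scaling). Neither call was stable, since that of Pfdn2 was lost when any 1 of N1, N2, N4, N5, N6, T1, T2 and T7 was left out (adjusted p up to 0.12) and that of Sugt1 when any 1 of N2, N4, N5, N6, T1, T2 and T7 was (up to 0.14), and both with library-size scaling.

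The other 4 lists had no call in limma or edgeR, while DESeq2 called Dnajb5 and Dnajb13. Of 34 further J-domain genes 17 were higher and 17 lower, 6 with an unadjusted p under 0.05 and Dnajb5 at the smallest (log2 fold change -0.78, limma adjusted p = 0.12). Of 4 further small heat shock genes tested 3 were higher (Hspb11 0.82, adjusted p = 0.34), of 6 genes of mitochondrial folding 4 (Clpx 0.33, adjusted p = 0.44), and of 10 regulators of heat shock factors 5 were higher and 5 lower (Hdac6 -0.54, adjusted p = 0.31). With library-size scaling 9 of the 34 J-domain genes, 3 of the 4 small heat shock genes, 3 of the 6 mitochondrial genes and 1 of the 10 regulators were higher, and without T5 2 of the 4 small heat shock genes. In these last 3 lists 0 genes had an unadjusted p under 0.05 in limma.

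Beside these, 15 of 17 chaperone genes of the endoplasmic reticulum were higher in D30, with a median log2 fold change of 0.43 (10 genes and 0.21 with library-size scaling), and 0 were called by limma or edgeR and 3 by DESeq2 (Hspa5, its HSP70, 0.78, limma adjusted p = 0.070, and 0.040 without T4). Of these genes 7 had an unadjusted p under 0.05. Of 31 proteasome subunits 25 were higher, with a median log2 fold change of 0.17 and no call by limma, edgeR or DESeq2, and 1 had an unadjusted p under 0.05 in limma (Psmd4 0.49, limma adjusted p = 0.25). T4 was the highest tumor in 25 of the 31, and without it 14 were higher and 17 lower, with a median of -0.03. Library-size scaling gave the same counts, with a median of -0.06, and the median was 0.09 without N5 and 0.25 without T2. Of the 20 immediate early genes 17 were higher (14 without T5) and Btg2 was called (1.18, limma adjusted p = 0.0103). Whether any of these lists differs from the 40 genes was not tested.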

How the data were processed

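Per the labels and methods, the authors prepared strand-specific RNA libraries from tumors of separate mice, trimmed reads with Trim Galore, aligned them with STAR 2.7.0e and list DESeq2 and RSEM, a program that estimates counts, among their software, and the processing notes name GRCm39 while the methods name hg38. How RSEM was used, the counting settings and the annotation are not given in the sources used here. The deposited values are a normalized signal, in which the authors divided each read count by the tumor's size factor. In each tumor, 100.0% of the values were whole multiples of 1 step (within 0.1), which gave back the reads.

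Names and positions came from GENCODE M21 (GRCm38) by Ensembl identifier (94.1% of genes matched), upstream sequences from RefSeq. limma 3.58.1 (R 4.3.3), with a mean-variance trend, was run on log2(normalized count + 1) for 24560 genes (mean of 1 or more), adjusted by Benjamini-Hochberg over all of them. edgeR 4.0.16 and DESeq2 1.42.0 on the recovered reads, other scalings, pseudocounts and filters, and leaving out each tumor were alternatives. The limma step was tested on simulated data. Levels between genes were compared per kilobase of annotated exon.

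The 40 genes and all lists were chosen with earlier results of these data known. Full values are given for genes with an unadjusted p under 0.05 or without overlap, for the most abundant gene per kilobase of each role, and, chosen after their values were seen, for Hspa1a, Hspa1b, Cryab, Hsph1 and Hspe1. Of the further lists, called genes are named, or else that with the smallest p.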

Additional observations from a re-analysis of the deposited data

Results flagged for a closer look

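In 16 cases among the 40 genes the highest or lowest tumor of a group of 5 lay farther from the rest than Dixon's 95% limit allows. About 1 of 20 groups of normally distributed values pass that limit, but normalized counts need not be so distributed. Such cases were also frequent over the 17361 genes. There T4 lay apart on the high side in 12.3% and on the low side in 3.31%, and N1 in 6.65% and 3.16%. The shares were 4.23% and 0.541% for T5 and 0.939% and 0.259% for N4. T5 was the highest D30 tumor in Hspa1a (344.6), Hspa1b (1087), Hspb1 (4068) and Cryab (5412) and the lowest in Dnaja1 (3879). T4 was the highest in Hsf2 (1214), Hspa8 (141221), Hspa13 (4830), Hspe1 (21957) and Cct4 (14659) and the lowest in Hsf1 (532.0) and Bag3 (853.6). Among the CTRL tumors, N1 was the lowest in Hsf1 (1347) and the highest in Hspa13 (3889) and Chordc1 (4372), and N4 was the highest in Hspa4 (9207). All are normalized counts.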

How the results depend on the processing

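Of 30 results under 21 alternatives, the 17 fully described members kept their direction and their side of the threshold in 339 of 357 values. This number counts as kept the DESeq2 values of Hspa1a, Hspa1b, Hspb1 and Cryab, which have a direction but no p. Relative to 678 called genes over the whole table, DESeq2 called 1858 and leaving out each tumor gave 279 (without N2) to 1573 (without T4), with 340 without N5, 332 without N6 and 433 without T7. Without T4 and T5 the count was 2418, with 2 members called. The members' median moved to -0.063 with library-size scaling. Reversed log2 fold changes were Hspa4 -0.058, Hsp90ab1 -0.073, Hspd1 -0.095 and Hsph1 -0.014 with library-size scaling, Dnaja2 0.025 with upper-quartile scaling and 0.049 with GC and length medians removed, and, without T4 and T5, Hsf1 0.29, Fkbp4 0.29 and Cryab -0.06. Leaving out each tumor, the values ran from -0.001 to 0.41 for Hspd1, -0.031 to 0.57 for Hsph1, -0.078 to 0.013 for Dnaja2, -0.33 to 0.24 for Hsf1 and -0.25 to 0.069 for Fkbp4. The cause was not tested. DESeq2 gave neither a p nor an adjusted p for Hspa1a, Hspa1b, Hspb1 and Cryab, so it could not call them. No paired analysis was possible because the column numbers are not the labels' replicate numbers. Depth limited Hspb2 and Hspa1a most, which rested on 6 to 72 and 9 to 301 reads per tumor.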
